A study of Mus musculus with 4 samples.

Results

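The miRNAs described here are the 10 guide arms of the paralogous clusters miR-17-92, miR-106b-25 and miR-106a-363, out of 1038 known miRNAs in the table of the series. They were chosen by name: mmu-miR-17-5p, mmu-miR-18a-5p, mmu-miR-19a-3p, mmu-miR-20a-5p, mmu-miR-19b-3p and mmu-miR-92a-3p from miR-17-92, mmu-miR-106b-5p, mmu-miR-93-5p and mmu-miR-25-3p from miR-106b-25, and mmu-miR-363-3p from miR-106a-363. A guide arm is the strand of the hairpin that is usually loaded into the silencing complex. All 10 had a row in the table, and 8 reached a mean of at least 5 normalized reads in a group and were tested. Small RNA of the medial prefrontal cortex, both sides, was sequenced from male C57BL/6J mice (C57BL/6 in the sample labels) that entered the study at postnatal day 21. The 2 CUMS libraries came from mice that had lived under chronic unpredictable mild stress, a changing schedule of mild stressors, for 3 weeks and then met the behavioural criteria for a depression-like state. The 2 control libraries came from mice without these stressors. RNA was extracted from each mouse, but the sources used here do not say whether a library held 1 mouse or several.

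The clusters arose by duplication and are each transcribed as 1 long RNA from which several hairpins are cut. They are known for driving cell proliferation and survival, and in the brain for supporting the division of neural progenitors. Members that carry the miR-17 seed repress the cell cycle inhibitor p21, and miR-92a and miR-25 repress the pro-apoptotic protein Bim. In GENCODE M21 on GRCm38, miR-17-92 lies at chr14:115043671-115044506 on the plus strand, where its 6 hairpins are exonic in the long noncoding RNA gene Mir17hg. The miR-106b-25 cluster lies at chr5:138165321-138165818 on the minus strand, inside Mcm7, which encodes a subunit of the replication helicase. Mir106b was exonic in 0 of 2 overlapping Mcm7 transcripts, and Mir93 and Mir25 were each exonic in 1 of 3. The miR-106a-363 cluster lies at chrX:52741693-52742567 on the minus strand, also with 6 hairpins.

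The 10 guide arms fell into 4 seed groups. The sequences below come from RefSeq on GRCm38.p6, and capitals mark the seed, bases 2 to 8, which pairs with target mRNAs. They are shown because most of the groups cross the clusters, so that several loci can supply the same seed. The first group has the miR-17 seed.
miR-17-5p: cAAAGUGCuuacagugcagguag
miR-20a-5p: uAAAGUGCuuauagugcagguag
miR-93-5p: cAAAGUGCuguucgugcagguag
miR-106b-5p: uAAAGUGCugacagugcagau
The miR-18 seed differs from it by 1 base and has 1 member here.
miR-18a-5p: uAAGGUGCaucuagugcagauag
The miR-19 seed is found in 2 members.
miR-19a-3p: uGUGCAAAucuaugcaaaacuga
miR-19b-3p: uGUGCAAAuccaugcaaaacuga
The miR-25 seed is found in 3 members, drawn from all the clusters.
miR-92a-3p: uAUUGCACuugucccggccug
miR-25-3p: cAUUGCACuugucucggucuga
miR-363-3p: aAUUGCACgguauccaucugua

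Counted from 1 at the 5′ end, miR-19a-3p and miR-19b-3p differed only by U11C, and miR-17-5p and miR-20a-5p by C1U and C12U. Reads had been matched to precursors with no mismatch and at least 16 nt of overlap with the mature miRNA. The longest run that any of the 45 pairs of guide arms shared was 12 nt, so a read that met both criteria could be told apart between them. miR-18a-5p shares a run of 17 nt with miR-18b-5p of chromosome X, so some of its few reads could come from either. By contrast, miR-19b-3p and miR-92a-3p are each made with the same mature sequence by a hairpin on chromosome 14 and one on chromosome X. Their reads could not be assigned to miR-17-92 or miR-106a-363. Another 6 miRNAs of miR-106a-363 (both arms of miR-106a, miR-18b and miR-20b) were not analysed here.

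Depth was even, with 9589323 to 10783592 reads on known miRNAs per library, and 3 reads, taken as the floor, corresponded to 0.278 to 0.313 RPM. The reads of each library were solved from the deposited means, and each group has a library a and a library b. Values are normalized reads, that is reads divided by the size factor of the library, which ranged from 0.944 to 1.06. The neuronal miRNAs miR-124-3p, miR-9-5p, miR-128-3p and miR-138-5p summed to between 722185 and 957777 normalized reads in every library. Control library b stood apart in 8 miRNAs of epithelial and sensory cells, among them miR-182-5p and miR-200b-3p, whose sum was 1004810 there and 4047 to 7329 in the other libraries. Of these 8, miR-96-5p and miR-200c-3p were at 0 in at least 1 other library. Results on the guide arms that rest on control library b are also given without it. In tissue RNA, fewer cells of a type and less RNA per cell cannot be told apart.

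The 10 guide arms were a small part of the miRNA pool, and 3 of them held nearly all of their reads. Opposite arms, among them miR-106b-3p, are not in these sums. The 10 members summed to 12663 and 15285 normalized reads (control a, then b) and to 12116 and 12586 (CUMS a, then b), the order used for all pairs of values here. This was 0.123% to 0.142% of all normalized reads of a library. miR-25-3p and miR-92a-3p, which share a seed, made up 81.6% and 85.5% of the sum in control and 86.4% and 79.0% in CUMS. Adding miR-93-5p brought the share to between 91.2% and 96.04%.

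The most abundant guide arm was miR-25-3p. Control mice gave 5648 and 6973 normalized reads, CUMS mice 5148 and 5231. The CUMS libraries were thus both below the controls, the only tested guide arm with this order, and it ranked 89th in the table. Libraries did not overlap in this direction for 17.4% of the 628 miRNAs tested. The log2 CUMS over control of miR-25-3p was -0.27 (SE 0.158, 95% confidence interval -0.66 to 0.12), and it did not pass the limma test (adjusted p = 0.778). Without control library b the log2 difference was -0.12.

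Its seed partner miR-92a-3p was close in level. The control values were 4689 and 6097 normalized reads and the CUMS values 5325 and 4709.6, so the groups overlapped. The reads of miR-25-3p over those of miR-92a-3p ranged from 0.967 to 1.20, above 1 in 3 of 4 libraries, and the order of these neighbours was not separated from the spread over libraries. The log2 CUMS over control of miR-92a-3p was -0.095 (SE 0.179, adjusted p = 0.921 by limma). Without control library b it was 0.095. Both miR-25-3p and miR-92a-3p were higher in control library b than in control library a, by 0.30 and 0.38 on the log2 scale. Between the same libraries, of the choroid plexus miRNAs, miR-204-5p was 0.39 higher in b on this scale and miR-211-5p had a difference of -2.58. Of the 4 neuronal miRNAs 1 was higher in b, miR-138-5p by 0.41, and their sum differed by -0.23. Control library b was above a for 8 of 8 epithelial and sensory miRNAs and for 2 of 4 of microglia and leukocytes. The count was 1 of 2 for endothelium, 1 of 3 for oligodendrocytes and 0 of 4 for red cells. The part of these in the difference was not tested.

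miR-93-5p, the third in abundance, carries the miR-17 seed. Its normalized reads were 1459 and 1365 (control) and 1165 and 1539 (CUMS). The CUMS libraries lay on either side of both control libraries, and the log2 difference was -0.076 (SE 0.189, adjusted p = 0.936 by limma). The remaining member of the Mcm7 cluster, miR-106b-5p, was low in every library, with 53.8 and 53.0 normalized reads in the controls against 61.2 and 64.6 under CUMS. Here the CUMS libraries both exceeded the controls, which held in this direction for 18.2% of the miRNAs tested. Its log2 difference was 0.23 (SE 0.263, 95% confidence interval -0.42 to 0.88, adjusted p = 0.856 by limma) and ranged from 0.19 to 0.31 over the alternatives run. As the groups did not overlap, leaving out 1 library could not change its sign. Thus, of 3 guide arms cut from within Mcm7, one was lower, one was higher and one overlapped between the groups, and none passed the test.

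**Figure D1:**
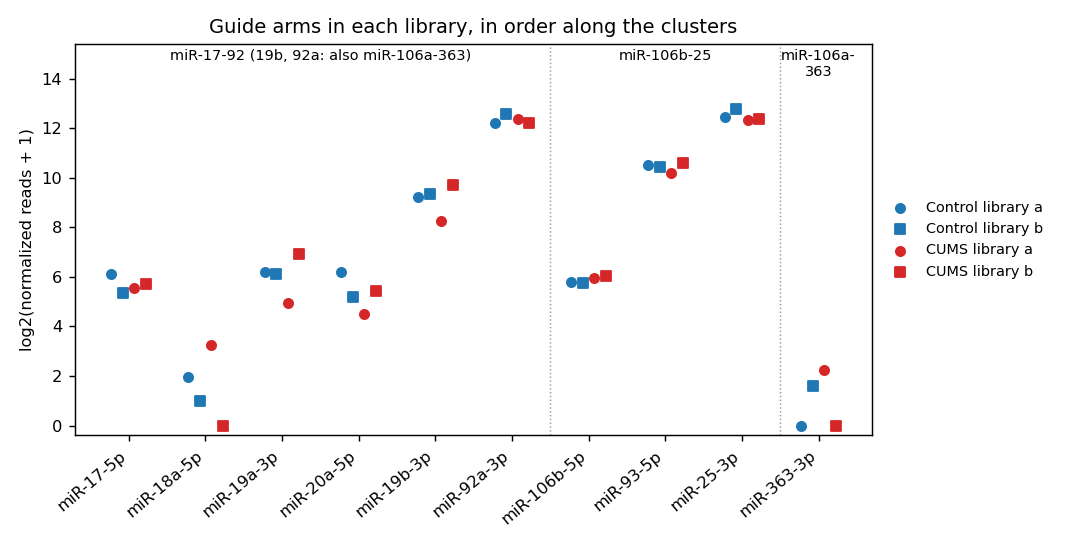
The vertical axis gives log2 of normalized reads plus 1 and the horizontal axis the 10 guide arms in order along each cluster. Blue marks are control libraries and red marks CUMS libraries (circles library a, squares library b), and the 3 most abundant arms, miR-25-3p, miR-92a-3p and miR-93-5p, sit above the rest while the CUMS marks of miR-19a-3p and miR-19b-3p lie on either side of both control marks.

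Within a cluster the guide arms differed widely in level although they come from 1 transcript. In miR-106b-25, miR-25-3p had 3.40 to 5.11 times the reads of miR-93-5p, and miR-93-5p had 19.03 to 27.1 times the reads of miR-106b-5p, in that order in 4 of 4 libraries. In miR-17-92, miR-92a-3p had 5.69 to 17.3 times the reads of miR-19b-3p, to which the second locus of both may also contribute. miR-19b-3p had 6.91 to 10.2 times the reads of miR-19a-3p. Below these, the order was not fixed. The reads of miR-19a-3p over those of miR-17-5p ranged from 0.653 to 2.31 and those of miR-17-5p over miR-20a-5p from 0.920 to 2.13, and their levels overlapped over libraries. Mature miRNAs of 21 to 23 bases were compared, so length did not differ much, but reads are not molecules, since adaptors join some sequences more readily than others.

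miR-17-5p, the first member of its cluster, gave 67.5 and 39.98 normalized reads from control mice, and 46.1 and 51.9 from CUMS mice. Both CUMS values fell between the control values (log2 difference -0.085, SE 0.353, adjusted p = 0.944 by limma). Without control library b the log2 difference of miR-17-5p was -0.46, with both CUMS values below the remaining control value. miR-20a-5p, which has the same seed, was at 73.4 and 35.0 (control) and at 21.7 and 42.4 (CUMS). One CUMS library was lower than both controls and the other lay between them, which gave a log2 difference of -0.72 (SE 0.508, 95% confidence interval -1.98 to 0.53, adjusted p = 0.778 by limma). With 1 library left out it ranged from -1.25 without control library b to -0.20 without control library a. The control libraries alone differed by 1.05 on the log2 scale for miR-20a-5p, with a the higher, and by 0.74 for miR-17-5p, so that the 2 members of this seed in miR-17-92 were both higher in control library a.

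The members of the miR-19 seed split the CUMS libraries. Control mice gave 597 and 649.7 normalized reads of miR-19b-3p, with 308 in CUMS library a against 827 in CUMS library b. miR-19a-3p was at 72.4 and 69.0 in the controls, 30.1 in CUMS library a and 119.7 in CUMS library b. For both miRNAs the controls lay close together and the CUMS libraries on either side of them. CUMS library b was above CUMS library a by 1.96 (log2) for miR-19a-3p and by 1.42 for miR-19b-3p. Among the 460 miRNAs with a mean of at least 20 normalized reads in a group, these were the 4th and the 14th largest gaps between the CUMS libraries, whose median size was 0.27. miR-20a-5p, which lies between the miR-19 hairpins, had a gap of 0.94 in the same direction and ranked 43rd. The gap was 0.17 for miR-17-5p, 0.40 for miR-93-5p, -0.18 for miR-92a-3p, 0.023 for miR-25-3p and 0.077 for miR-106b-5p.

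**Figure D2:**
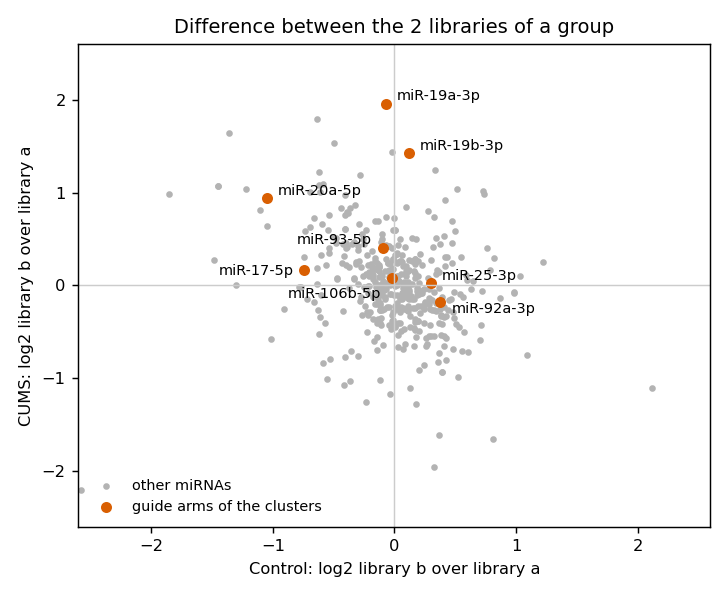
Each point is a miRNA with a mean of at least 20 normalized reads in a group, placed by log2 of library b over library a in control (horizontal) and in CUMS (vertical), with 448 miRNAs drawn and 12 outside the axes. Guide arms are orange, and miR-19a-3p and miR-19b-3p stand near the top, at 1.96 and 1.42, with control differences of -0.069 and 0.12.

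The sign of the miR-19 differences depended on which CUMS library was kept. By limma, the log2 CUMS over control of miR-19b-3p was -0.30 (SE 0.451, 95% confidence interval -1.41 to 0.81, adjusted p = 0.905) and that of miR-19a-3p was -0.23 (SE 0.629, 95% confidence interval -1.78 to 1.33, adjusted p = 0.936). For miR-19a-3p the ratio of the group means had the opposite sign, with a log2 of 0.084. Without CUMS library a the log2 differences were 0.41 for miR-19b-3p and 0.75 for miR-19a-3p. Without CUMS library b they were -1.01 and -1.20. In the latter case both would have met the study's own criteria, an unadjusted p under 0.05 with a fold above 1.5 (adjusted p = 0.770 by limma for both). Without control library b, miR-20a-5p would have met them (log2 difference -1.25, adjusted p = 0.930 by limma). In these fits the remaining lone library is assumed to vary like the others.

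GC content and cell type markers were set beside the gap between the CUMS libraries. miR-19a-3p had the lowest GC content of the 10 guide arms, 34.8%, followed by miR-19b-3p and miR-20a-5p with 39.1% each. Among the 70 miRNAs with a GC content of at most 40%, the median of CUMS library b over a was 0.22 on the log2 scale. The highest value there was that of miR-19a-3p itself. Medians were 0.15, -0.044 and -0.12 in the steps up to 45%, 50% and 55%, and -0.078 among the 104 miRNAs above 55%. The highest values in these later steps were 1.64, 1.24, 1.79 and 1.44. Over all 408 miRNAs compared, the Pearson correlation of GC content with this gap was -0.14. Marker miRNAs of cell types also differed between these libraries. CUMS library b was above a for 4 of 4 red cell miRNAs (log2 0.24 to 1.09), 3 of 3 of oligodendrocytes (0.15 to 0.41) and 7 of 8 of epithelial and sensory cells (the other, miR-200c-3p, was at 0 in both, and the highest was miR-200a-3p at 1.58). It was above a for 3 of 4 miRNAs of microglia and leukocytes (-0.80 for miR-150-5p to 1.73 for miR-223-3p), 2 of 4 of neurons (-0.54 for miR-138-5p to 0.42 for miR-9-5p) and 1 of 2 of endothelium (-0.13 to 0.22). Both choroid plexus miRNAs were lower in b (-0.33 for miR-204-5p and -2.20 for miR-211-5p). Summed by cell type, these lists differed by log2 values from -0.46 to 0.57, sums in which 1 abundant miRNA often dominates. The highest single markers, miR-223-3p (1.73) and miR-200a-3p (1.58), had few reads. Their gaps lay above the 1.42 of miR-19b-3p and below the 1.96 of miR-19a-3p. The gap of miR-211-5p, -2.20, was larger in size but in the opposite direction. The part of GC content and of these cell types in the miR-19 gaps was not tested.

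The rarest members had at most 9 reads in a library. Raw reads of miR-18a-5p were 3 and 1 (control) and 9 and 0 (CUMS), and those of miR-363-3p were 0 and 2 (control) and 4 and 0 (CUMS). The 0 reads in CUMS library b allow up to 0.313 RPM. Neither was tested, no fold is given, and a difference was not detectable at this depth. miR-18a-5p was thus far below the other members of miR-17-92, and in CUMS library a miR-20a-5p had 2.56 times its reads.

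Across the cluster guides, the comparison of CUMS with control gave no call. Of the 8 tested, 0 passed an adjusted p under 0.05 and 0 had an unadjusted p under 0.05 by limma, with adjusted p values of 0.778 to 0.944. The background was 0% of 628 miRNAs at an adjusted p under 0.05 by limma, edgeR or DESeq2, and 27 miRNAs (4.3%) by limma, 35 (5.57%) by edgeR and 24 (3.82%) by DESeq2 at an unadjusted p under 0.05. The study's criteria were met by 23 miRNAs (3.66%) by limma, 29 (4.62%) by edgeR and 18 (2.87%) by DESeq2, with 0 cluster guides among them by each. Log2 differences were below 0 for 7 of the 8 guides, with a median of -0.16, while 48.7% of all tested miRNAs were below 0 and their median was 0.015. The count below 0 was 4 of 8, with a median of 0.062, without CUMS library a, and 6 or 7 of 8 in the other alternatives run. These guides share transcripts and libraries and are not independent. The libraries of the groups overlapped for 6 of the 8 and for 405 of the 628 tested miRNAs. The CUMS libraries were both higher for 1 guide and both lower for 1 guide. Among all tested miRNAs these shares were 18.2% and 17.4%, or 35.5% in either direction. For a single miRNA, an exact two-sided permutation test of 2 against 2 libraries cannot go below p = 0.333.

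**Figure D3:**
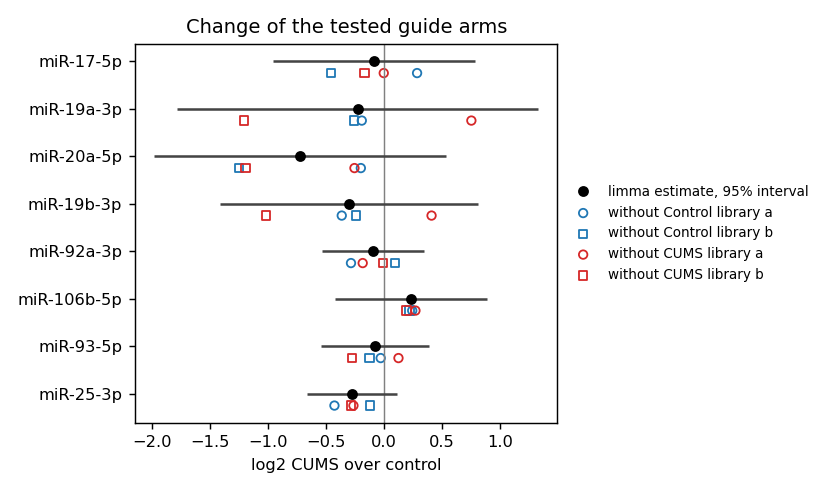
Black points are the limma log2 CUMS over control of the 8 tested guide arms, with 95% confidence intervals as lines, and open marks are the values with 1 library left out. Every interval includes 0, and the open marks of miR-19a-3p spread from -1.20 to 0.75 while those of miR-106b-5p stay near 0.23.

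Sums over seeds and loci showed which differences remained when members were added. The miR-17 seed group (miR-17-5p, miR-20a-5p, miR-93-5p and miR-106b-5p) summed to 1654 and 1493 normalized reads (control) and to 1294 and 1698 (CUMS). The miR-19 seed group summed to 669 and 719 (control) and 338 and 947 (CUMS). The miR-25 seed group summed to 10337 and 13072 (control) and 10476 and 9940.4 (CUMS). All of these sums overlapped between the groups. The members made only by miR-17-92 (miR-17-5p, miR-18a-5p, miR-19a-3p and miR-20a-5p) summed to 216 and 145 (control) and 106.4 and 214 (CUMS), which also overlapped. The miR-106b-25 guides summed to 7161 and 8392 (control) and 6373 and 6835 (CUMS), a ratio of 0.849. Both CUMS libraries were lower here, a sum that miR-25-3p dominates. Sums carry no test.

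Opposite arms were measured beside the guides, and for Mir106b the named guide was not the major arm by reads. Loading into the silencing complex was not measured, and adaptors may join the arms of a hairpin unequally. From Mir106b, reads of miR-106b-3p were 607 and 591 (control) and 668 and 554 (CUMS), whereas those of miR-106b-5p were 55 and 53 (control) and 65 and 61 (CUMS). The 3p arm was 9.08 to 11.2 times as abundant in 4 of 4 libraries. The 5p arm held 8.82% of the reads of this hairpin pooled over libraries (95% Wilson interval 7.80% to 9.96%, counting error only). In the other hairpins with over 100 reads the named guide was the major arm. It held 99.1% to 99.2% of the reads for miR-25-3p, 99.0% to 99.5% for miR-93-5p, 89.7% to 95.8% for miR-20a-5p and 76.6% to 89.6% for miR-17-5p over the 4 libraries. For miR-92a-3p over miR-92a-1-5p the share was 99.5% to 99.8%, but the second locus adds reads to the 3p arm alone.

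**Figure D4:**
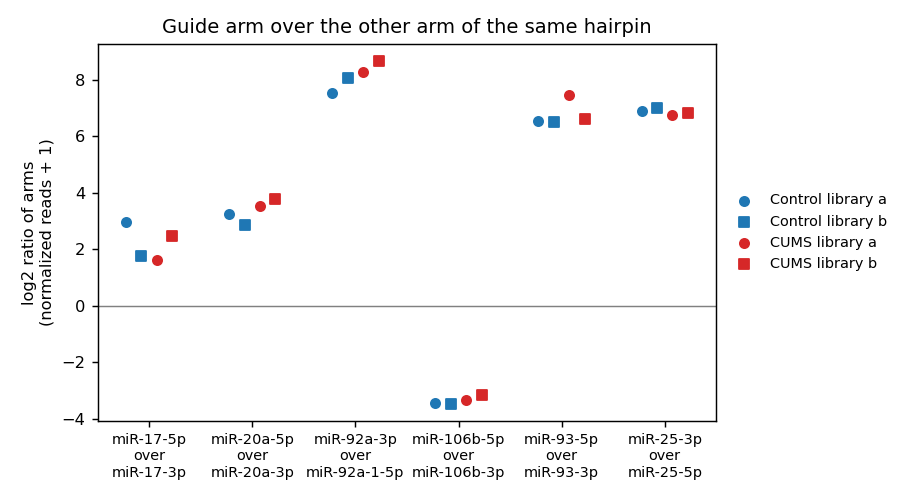
The vertical axis gives log2 of the guide arm over the other arm of the same hairpin, in normalized reads plus 1, for 6 hairpins and each library (blue control, red CUMS, circles library a, squares library b). Mir106b is the hairpin below 0, where the 3p arm had 9.08 to 11.2 times the reads of the 5p arm.

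The opposite arms were also compared between the groups. Of 12 listed, 8 were in the table and the others were not analysed here. Of the 6 tested, 0 passed, 2 had log2 differences above 0 and 4 below, with a median of -0.33. Among all 628 tested miRNAs 0 passed and 48.7% were below 0, with a median of 0.015. The CUMS libraries were both lower for 2 of the 6, against 17.4% of all tested miRNAs. miR-106b-3p, the most abundant, had a log2 CUMS over control of 0.037 (SE 0.164, adjusted p = 0.944 by limma). miR-92a-1-5p, which is made only on chromosome 14, was read 25 and 22 times in the controls against 17 and 10 times under CUMS. The CUMS libraries were both lower, with a log2 difference of -0.78 (SE 0.430, 95% confidence interval -1.85 to 0.28, adjusted p = 0.778 by limma). miR-20a-3p was read 7 and 4 times in the controls against 1 and 2 times under CUMS, the same order at few reads (log2 difference -1.35, adjusted p = 0.778 by limma). Reads of miR-25-5p were 47 and 53 (control) and 50 and 43 (CUMS), and those of miR-93-3p were 15 and 14 (control) and 6 and 14 (CUMS). Both overlapped between the groups, and CUMS library b was above a for miR-93-3p by 1.25 on the log2 scale of normalized reads, at few reads. Reads of miR-17-3p were 8 and 11 (control) and 15 and 8 (CUMS), which overlapped too. miR-363-5p was read 2 and 1 times and miR-18a-3p 0 and 1 times in the controls, and under CUMS 0 and 0 times and 1 and 0 times, too few to compare.

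Outside the clusters, the miR-25 seed was supplied far more by miR-92b-3p than by the cluster members. miR-92b-3p, made from its own hairpin on chromosome 3, was read 114677 and 138837 times (control) and 137861 and 109757 times (CUMS). It had 22.8 to 24.7 times the reads of miR-92a-3p and 19.9 to 25.2 times those of miR-25-3p. Its log2 CUMS over control was -0.022 (SE 0.161, adjusted p = 0.958 by limma), and its libraries overlapped. miR-32-5p, the other relative of this seed in the table, from an intron of Tmem245, was read 17 and 16 times (control) and 14 and 3 times (CUMS) (log2 difference -1.17, SE 0.710, adjusted p = 0.778 by limma). Both CUMS values were lower, at few reads, an order found for 17.4% of all tested miRNAs.

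The miRNAs whose pattern over the 4 libraries was most like that of the summed members were miR-338-3p, miR-301a-3p and miR-7080-3p, with root mean square distances of 0.055, 0.062 and 0.062 on the log2 scale among 285 candidates. miR-338-3p, a miRNA of oligodendrocytes, was at 4356 and 4878 normalized reads (control) and 3780.4 and 4196 (CUMS). With 4 libraries such likeness is a description only.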

How the data were processed

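The authors removed adaptor, low-quality and other noncoding RNA reads and matched clean reads of 18 to 25 nt to mouse miRBase precursors with no mismatch. Bowtie, DESeq and mm10 are named in the submitters' processing notes. The deposited signal is each group's mean read count after division by DESeq size factors, assigned to control and CUMS from the study's own listing of values. The 4 columns of the authors' comparison (fold change, its log2, p and adjusted p) were not used.

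From these means the whole reads of each library were solved as 2 whole numbers per mean. For each group, 1038 of 1038 means gave whole reads (100%, relative residual under 1e-09). For 1 control value the next pair came within 10 times the best residual. The libraries are named a and b and cannot be tied to replicate numbers. Limma 3.58.1 (R 4.3.3, trend, group as the factor) was fitted to log2(normalized reads + 1) of the 628 miRNAs that reached a group mean of 5, two-sided, with Benjamini-Hochberg adjustment over all 628. Fold changes on this scale understate the change of low miRNAs. In a simulation with 628 miRNAs, of which 200 were changed 4-fold at a dispersion of 0.02, limma called 184 (92%) of these and 4 others. A 4-fold change is larger than any estimate of the tested guide arms (largest in size -0.72 on the log2 scale, miR-20a-5p). The SE of miR-19a-3p was 0.629, so the simulated rate does not give the power for the guide arms. Alternatives were edgeR 4.0.16 and DESeq2 1.42.0 on the reads (0 calls each), pseudocounts of 0.5 and 5, TMM and CPM scaling, CPM without the miR-183 and miR-200 clusters, no filter, and leaving out each library. The methods speak of biological duplicates without tying libraries to mice, and p-values measure only the spread between these libraries, which may be partly technical. Intervals and floors cover counting error only. The members, the lists (opposite arms, remaining miR-106a-363 miRNAs, seed relatives, cell type markers) and the rule naming every listed miRNA and the 3 most alike in pattern were chosen with earlier results of these data known. Hairpin positions came from GENCODE M21 and sequences from RefSeq, with a sequence for all 10 guide arms.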

Additional observations from a re-analysis of the deposited data

How the results depend on the processing

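Of 96 values of the 8 tested guide arms under alternatives, 88 kept their sign and 8 changed it, and no guide passed an adjusted p under 0.05 in any. miR-19a-3p turned to 0.034 (log2) with edgeR and 0.080 with DESeq2, and miR-93-5p to 0.0013 with CPM scaling. With 1 library left out, log2 differences ranged from -0.46 to 0.29 for miR-17-5p (0.29 without control a), -1.20 to 0.75 for miR-19a-3p and -1.01 to 0.41 for miR-19b-3p (highest without CUMS a), -0.28 to 0.095 for miR-92a-3p (0.095 without control b) and -0.28 to 0.12 for miR-93-5p (0.12 without CUMS a). The count of guides below 0 fell from 7 to 4 of 8 without CUMS a. miR-20a-5p (-1.25 to -0.20) and miR-25-3p stayed below 0 and miR-106b-5p above 0 in every alternative. For miR-25-3p and miR-106b-5p, whose groups did not overlap, leaving out 1 library could not change the sign, so this is no check.

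The number of miRNAs called at an adjusted p under 0.05 ranged from 0 to 8 with 1 library left out (8 without control a). Those past the study's criteria ranged from 17 to 44 (36 without control a, 44 without CUMS a) against 23, and numbered 51 with no filter, where more miRNAs are tested. Guide arms past them ranged from 0 to 2, with 1 (miR-20a-5p) without control b and 2 (miR-19a-3p and miR-19b-3p) without CUMS b. Without CUMS b, the log2 difference of the miR-19 seed sum was -1.04. For the sum of the members made only by miR-17-92, which leaves out miR-19b-3p and miR-92a-3p, it was -0.76. The log2 differences of the miR-25 seed sum and of all members were -0.018 and -0.036 without control b. The causes were not tested. The ratios of levels and arms were rerun only with CPM scaling and with each library left out. A scale factor nearly cancels in a ratio within a library, and a mean over libraries stays within their range. That all 110 values moved by less than the spread between libraries was thus largely fixed in advance and is no check. No paired analysis was possible because the recovered library values carry no replicate numbers. Members with under 100 reads per library and 2 libraries a group limit what could be detected.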
